A study of Mus musculus with 8 samples.

Results

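The oligonucleotides described here are the 60-base array probes whose sequence holds a seed match for the miR-200 family of microRNAs. A probe was taken when its sequence, as written in the array files, held the 7-base DNA reverse complement of bases 2 to 8 of miR-200b-3p (shared with miR-200c and miR-429) or of miR-141-3p (shared with miR-200a). Of 42006 probes, 211 held the first match, 349 held the second and 0 held both, which gives 560 probes. A probe was then kept when Agilent's software marked its footpad signal as well above background on both arrays of at least 1 group. That filter kept 406 of the 560, made up of 159 probes of the miR-200b type and 247 of the miR-141 type. Over the whole array it kept 29199 of 42006 probes.

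The arrays measured RNA of mouse footpad skin, dissected from C57BL6 embryos of timed matings. The 4 groups were Dicer cKO (KO) and wild type (WT) at the embryonic stage E16.5, and KO and WT a day later at E17.5, with 2 arrays in each group. The labels call the 2 arrays of a group biological replicates, and each array held total RNA pooled from 3 to 5 embryos. The Cre driver, the deleted part of Dicer and the cells that lost it are not given in the sources used here. Footpad RNA carried the dye Cy3 and a Universal Mouse Reference carried Cy5 on all 8 arrays, with no dye swap. The value of a probe is M, its footpad signal over its reference signal on the log2 scale, so M compares arrays at 1 probe and not levels of different probes. The 4 arrays of a stage shared 1 slide. Each KO and WT comparison of a stage thus lay inside 1 slide, whereas stage and slide cannot be told apart. Between 62.0% and 72.0% of probes were well above background in Cy3 on an array, and Pearson's r of M across probes was 0.995 to 0.996 within groups and 0.984 to 0.993 between KO and WT of 1 stage. The files pair no probe with a gene or a genome position, so Dicer itself and tissue marker genes could not be read as a check of the labels.

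Dicer cuts hairpin precursors into mature microRNAs, which pair through their seed with sites in messenger RNAs, mostly in the 3′ untranslated region, and lower the stability or translation of those messages. The miR-200 family is known as an epithelial family of microRNAs, expressed in skin epithelium, and its best known targets are the transcription factors Zeb1 and Zeb2, which repress epithelial genes. Loss of a microRNA is generally expected to raise its direct targets, which is the question a KO and WT comparison of seed-matched probes addresses. A seed match in a probe is a description of its letters. Whether it lies in an untranslated region, is conserved or is bound in footpad was not tested.

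The mature sequences, from RefSeq with the GRCm38.p6 build, are shown because their seeds define both groups of probes. Capitals mark bases 2 to 8, the seed. The first 3 share 1 seed and the last 2 share the other.
miR-200b-3p: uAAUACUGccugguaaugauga
miR-200c-3p: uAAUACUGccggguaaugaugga
miR-429-3p: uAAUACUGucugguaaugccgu
miR-141-3p: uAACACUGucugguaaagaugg
miR-200a-3p: uAACACUGucugguaacgaugu
All 5 lie on the minus strand, miR-200b, miR-200a and miR-429 on chromosome 4 (chr4:156055685-156055706, chr4:156054911-156054932 and chr4:156053916-156053937) and miR-200c and miR-141 on chromosome 6 (chr6:124718324-124718346 and chr6:124717917-124717938). The match searched for was CAGTATT for the first seed and CAGTGTT for the second. These 7-base matches differ at 1 position, the fifth counted from the 5′ end.

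The probes that the results below turn on are shown as stretches of 30 bases of the 60-base probe, 5′ to 3′, with each whole match in capitals. These 4 miR-200b type probes had the largest rises and falls in KO over both stages among those eligible. Eligible probes had a limma adjusted p under 0.05 and no overlap of KO and WT arrays in either stage.
Z00058867-1: actggcggaacCAGTATTtggaaggctggg
Z00032107-1: atgtttttgaagttaaataaaCAGTATTac
Z00063018-1: ggtcttcatcaagcatcaaggaCAGTATTt
Z00040305-1: agaaagttgtaCAGTATTtttcctgtaaag
These 4 miR-141 type probes had the largest rises and falls in KO over both stages among the eligible probes of that type. The largest fall of the type, -0.57 on the log2 scale, did not meet that rule.
Z00073926-1: gccattttgcaCAGTGTTaggcattgtaaa
Z00056009-1: gaggaagcccaCAGTGTTcacccgtgtctc
Z00043468-1: gtagttgggtaCAGTGTTttcctcacaccc
Z00020612-1: ccCAGTGTTactattgtgtggaatgaggtc
These 3 miR-141 type probes had a KO effect that differed between the stages.
Z00025474-1: aagatgatcccCAGTGTTacagtgacaatg
Z00055562-1: ccatgtgaatgtgaagagaagCAGTGTTgc
Z00076170-1: ccctgctacttCAGTGTTtgttcaatagac
These 2 probes each hold a match more than once.
Z00000715-1: tacccagaaacCAGTATTgtgaaCAGTATT
Z00075252-1: catgttcgtgtCAGTGTTCAGTGTTtggta

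The probe letters ran in the sense direction of the transcript, as far as the design shows. AATAAA, the usual signal for cleavage and polyadenylation, stood in 6.93% of the 42006 probes as written and in 3.36% on the opposite strand. The excess lay in the 3′ part of the probe, where a signal starting at bases 28 to 55 was found in 5.57% as written and in 1.89% on the opposite strand. In the 5′ part, from base 1 to 27, the shares were 1.44% and 1.53%. Of the 560 seed-matched probes, 6.79% held AATAAA, close to the share of all probes.

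The seed-matched probes were somewhat richer in A and T and brighter than the array as a whole. The median probe had 25 G or C bases, with 24 in the miR-200b type and 26 in the miR-141 type, against 27 over all probes. Among probes well above background, the median of A, the mean log2 intensity of both dyes, was 9.85 for the miR-200b type and 9.41 for the miR-141 type, against 8.78 over all. The filter kept 75.4% of the miR-200b type and 70.8% of the miR-141 type, against 69.5% of all probes. Of the 406, 373 (91.9%) were well above background on all 8 arrays, against 87.4% of all probes that passed, and 0 were saturated. The reference channel was well above background on all 8 arrays for 386 of them, and on no array for 7.

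The match began anywhere from base 1 to base 54 of the probe, with a median of 32 in the miR-200b type and 28 in the miR-141 type. An A just after the match makes the 8-base site that is often the stronger kind. It followed the match in 32 of 159 miR-200b type probes (20.1%) and in 39 of 247 miR-141 type probes (15.8%), while A made up 27.4% of all bases in the probes that passed. Counting every match in a probe, 72 of the 406 held an 8-base site, 33 of the miR-200b type and 39 of the miR-141 type.

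Over both stages together, seed-matched probes changed in KO in both directions and about as often as the array as a whole. KO minus WT was taken within each slide and averaged, and changed means an adjusted p under 0.05 in limma. Of the 403 seed-matched probes with a value in all groups, 71 changed (17.6%), of which 41 rose and 30 fell. The share over all 28929 probes tested was 19.5%, with 9.72% higher and 9.74% lower. Among the 157 miR-200b type probes 33 changed (21.0%), of which 17 rose and 16 fell. Among the 246 miR-141 type probes 38 changed (15.4%), of which 24 rose and 14 fell. The other probes, weighted so that their G and C counts had the distribution of the seed-matched probes, were called higher at 10.7% and lower at 9.59%, against 10.2% and 7.44% of the seed-matched probes.

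The changes were small. Between the quartiles, the KO minus WT difference of the seed-matched probes ran from -0.046 to 0.094 on the log2 scale and over all of them it ran from -0.68 to 0.61. With median centring of each array in place of loess, 51 of them were called, of which 4 were higher and 47 lower. The same setting called 267 of 3853 probes higher over the whole array and moved the median difference of all probes from 0.010 to -0.057. The split between rises and falls thus depended on how the arrays were centred. With the background fitted on all spots, the count was 2, against 91 over all probes. Leaving out WT E16.5 replicate 2 gave 44, and leaving out KO E17.5 replicate 2 gave 46.

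Probes named for a genotype comparison had to show no overlap of KO and WT arrays in the stages compared. Non-overlap in those stages thus follows from the choice. Z00058867-1 was the miR-200b type probe with the largest rise over both stages. Its M was -0.01 and -0.08 in KO and -0.48 and -0.41 in WT at E16.5, and 0.07 and 0.04 in KO and -0.36 and -0.56 in WT at E17.5. Every KO array lay above every WT array. The rise was 0.46 ± 0.05 (SE) on the log2 scale, which is 1.37-fold (limma adjusted p of 0.000772).

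Z00032107-1, with an 8-base site close to the probe's 3′ end, had an M of 1.38 and 1.51 in KO and 1.28 and 1.26 in WT at E16.5. At E17.5 its M was 1.52 and 1.40 in KO and 1.05 and 1.14 in WT. KO and WT did not overlap in either stage, as the choice required. The rise over both was 0.27 ± 0.05 (SE), which is 1.21-fold (limma adjusted p of 0.00592). It lost the call with median centring, where the limma adjusted p was 0.244.

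Z00063018-1 was the miR-200b type probe with the largest fall. Its M was 0.86 and 0.87 in KO and 1.46 and 1.53 in WT at E16.5, and 1.73 and 1.67 in KO and 2.56 and 2.27 in WT at E17.5. KO lay below WT in each stage, while both genotypes were higher at the later stage. The fall was -0.68 ± 0.06 (SE) on the log2 scale, which is 1.60-fold (limma adjusted p of 0.000305). Its reference signal was well above background on 2 of 8 arrays, so its ratio rests on a dim channel. With Agilent's processed signals, M was 5.85 and 5.57 in KO and 5.15 and 5.34 in WT at E17.5, a difference of 0.47 in the opposite direction with a limma adjusted p of 0.46. The direction at E17.5 thus changed with the background correction.

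Z00040305-1 fell as well. Its M was 2.06 and 2.07 in KO and 2.51 and 2.59 in WT at E16.5, and 2.47 and 2.53 in KO and 2.91 and 2.73 in WT at E17.5. The difference over both stages was -0.40 ± 0.05 (SE), which is 1.32-fold (limma adjusted p of 0.00114). The groups of a stage did not overlap, as the choice required.

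Z00073926-1, which holds an 8-base miR-141 type site, had the largest rise of all seed-matched probes over both stages. Its M was 2.16 and 2.11 in KO and 1.43 and 1.82 in WT at E16.5, and 2.21 and 2.16 in KO and 1.49 and 1.43 in WT at E17.5. The KO arrays lay close together, and WT E16.5 replicate 2 stood between them and the other WT arrays. The rise was 0.61 ± 0.08 (SE), which is 1.53-fold (limma adjusted p of 0.0013). With the background fitted on all spots, the E17.5 difference was -0.15 with a limma adjusted p of 0.881.

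Z00056009-1 rose by a similar amount at either stage. Its M was 0.61 and 0.56 in KO and 0.16 and 0.20 in WT at E16.5, and 0.65 and 0.61 in KO and 0.03 and 0.29 in WT at E17.5. The difference over both stages was 0.44 ± 0.06 (SE), which is 1.35-fold (limma adjusted p of 0.00176). A second seed-matched probe, Z00024278-1, shares 27 bases with it, the match included, and did not move with it. Its M was 0.13 and 0.00 in KO and 0.18 and 0.02 in WT at E16.5, and 0.29 and 0.05 in KO and 0.14 and 0.36 in WT at E17.5, where KO and WT overlapped in both stages. Its difference over both stages was -0.06 ± 0.07 (SE), with a limma adjusted p of 0.614. Both probes were well above background on all 8 arrays. The letters of the second probe, shown because they repeat those of the first from the match onward, are these.
Z00024278-1: ccaCAGTGTTcacccgtgtctcagccttca

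Among falls of the miR-141 type, Z00043468-1 had an M of 1.55 and 1.56 in KO and 2.01 and 2.11 in WT at E16.5, and of 1.83 and 1.88 in KO and 2.11 and 2.40 in WT at E17.5. It fell by 0.45 on the log2 scale over both stages, with a limma adjusted p of 0.00223. KO lay below WT at either stage. Z00020612-1, with an 8-base site at the 5′ end of the probe, had an M of 0.36 and 0.56 in KO and 0.59 and 0.64 in WT at E16.5, and of 0.24 and 0.31 in KO and 0.84 and 0.81 in WT at E17.5. Its fall over both stages was 1.28-fold, with a limma adjusted p of 0.00255, and at E16.5 alone the KO and WT values nearly met.

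Leaving out any 1 of the 8 arrays kept the call of each of these 8 probes over both stages, with limma adjusted p values of at most 0.0252. With the background fitted on all spots each lost it. Z00063018-1 also lost it with processed signals and with the series matrix, where the difference over both stages was -0.33 with a limma adjusted p of 0.443, and Z00032107-1 lost it with median centring. The all-spot fit failed on 2 arrays: its Cy3 background mean was -321 on KO E17.5 replicate 2, -7.00 on WT E16.5 replicate 1 and 4.69 to 8.98 on the rest, and these arrays hold spots with a local background of up to 26390 and 1332.5. The spots that Agilent's software marks as non-uniform, 269 to 364 on an array, were therefore left out before the fit reported here.

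At E16.5 few seed-matched probes changed in KO, 14 of 403, of which 7 rose and 7 fell. Their share of 3.47% stood beside 2.95% of all probes tested, 1.09% higher and 1.86% lower. The miR-200b type held 7 of them, 3 higher and 4 lower, which is 4.46% of its 157 probes. The miR-141 type held 7, 4 higher and 3 lower, which is 2.85% of its 246 probes. Among the 14 were 6 probes already described. Z00058867-1 rose by 0.40, Z00073926-1 by 0.50 and Z00056009-1 by 0.40, while Z00063018-1 differed by -0.63, Z00040305-1 by -0.48 and Z00043468-1 by -0.51. Their limma adjusted p values lay between 0.0102 and 0.0461. The other named probes at this stage are described next.

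Z00061021-1, an 8-base miR-200b type probe, had an M of 0.95 and 0.94 in KO and 0.59 and 0.70 in WT at E16.5. It rose 1.23-fold at that stage, with a limma adjusted p of 0.0401. At E17.5 its M was 0.87 and 0.83 in KO and 1.04 and 0.93 in WT, a difference of -0.13 with a limma adjusted p of 0.18, and the change of the KO effect between stages had a limma adjusted p of 0.0988. Z00016116-1 had an M of 0.05 and -0.19 in KO and 0.33 and 0.43 in WT at E16.5, and fell by 0.45 there, with a limma adjusted p of 0.0371.

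The count at E16.5 moved with every array left out, for the seed-matched probes as for the array as a whole, where 855 probes were called. With KO E16.5 replicate 1 left out the count was 2, and with KO E16.5 replicate 2 left out it was 0. Leaving out WT E16.5 replicate 1 gave 3, and leaving out WT E16.5 replicate 2 gave 1. Over all probes these settings called 372, 142, 335 and 142. The E17.5 arrays bear on these calls by way of the pooled variance alone, and the count was 7 when a KO E17.5 array was left out and 8 when a WT E17.5 array was. Each of the 8 named probes lost its call when some array was left out. Without KO E16.5 replicate 2, 59 probes had an unadjusted p under 0.05 in limma. With processed signals the count was 0, against 97 over all probes, and 65 had an unadjusted p under 0.05 in limma. Counts by unadjusted p are given for seed-matched probes alone, with no count over all probes beside them. With median centring it was 6, of which 0 were higher and 6 lower, and with Cy3 alone it was 23, of which 14 were higher and 9 lower. Of all probes called, 50 of 671 were higher with median centring and 518 of 1314 with Cy3 alone. With the replicate number as a block the count was 5, against 459 over all probes.

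At E17.5 the seed-matched probes changed in KO at the rate of the array. Of 404 probes, 58 changed (14.4%), of which 34 rose and 24 fell, beside 14.8% of all probes, 6.97% higher and 7.83% lower. The miR-200b type changed in 29 of 157 cases (18.5%), 15 higher and 14 lower. The miR-141 type changed in 29 of 247 (11.7%), 19 higher and 10 lower. Weighted for G and C, the other probes were called higher at 7.51% and lower at 7.89%, against 8.42% and 5.94% of the seed-matched probes. With median centring 19 were called, of which 2 were higher and 17 lower, and 251 of 1690 calls over the whole array were higher. With any 1 E17.5 array left out, fewer were called among the seed-matched probes and over all probes alike. The excess of rises among the seed-matched calls then shrank or gave way to an excess of falls.

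Z00025474-1, an 8-base miR-141 type probe, had the largest difference between genotypes of all seed-matched probes. Its M was -0.11 and -0.04 in KO and 1.05 and 1.00 in WT at E17.5, and -0.18 and -0.21 in KO and -0.22 and -0.09 in WT at E16.5. Only the WT E17.5 arrays stood apart, and the other 6 lay close together. Its footpad signal was well above background on both WT E17.5 arrays and on 1 of 2 arrays in each other group. It thus entered the set through WT E17.5 alone, and its other values lie near the limit of detection. The group that admitted it is the high side of this comparison. Its rank and p are therefore descriptions, also in a fit without the filter. KO was lower at E17.5 by a difference of -1.10 ± 0.06 (SE), and in the fit with no filter on dim probes the limma adjusted p was 4.1e-05. No fold is given, since the size of the difference ran from -2.29 with processed signals to -0.72 over the settings tried.

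Z00055562-1, of the same type, had the same shape. Its M was -1.64 and -1.53 in KO and -0.86 and -0.77 in WT at E17.5, and -1.73 and -1.63 in KO and -1.74 and -1.70 in WT at E16.5. It fell 1.71-fold in KO at E17.5, with a limma adjusted p of 0.000276, and was well above background on all 8 arrays. Again the WT E17.5 arrays were the ones that stood apart.

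Z00024860-1 had the second largest fall of the miR-200b type at E17.5. Its M was 0.45 and 0.65 in KO and 1.26 and 1.04 in WT at that stage, and 0.24 and 0.14 in KO and 0.25 and 0.37 in WT at E16.5. The fall at E17.5 was 1.52-fold, with a limma adjusted p of 0.00479. At E16.5 the KO and WT values nearly met.

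Rises at E17.5 were led by probes that also rose over both stages. Z00058867-1 rose 1.43-fold, with a limma adjusted p of 0.00309, and Z00073926-1 rose 1.65-fold, with a limma adjusted p of 0.00398. Z00074552-1, of the miR-141 type, had an M of 1.42 and 1.47 in KO and 1.00 and 0.92 in WT at E17.5, and of 1.52 and 1.57 in KO and 1.20 and 1.17 in WT at E16.5. Its rise at E17.5 was 1.40-fold, with a limma adjusted p of 0.00106. Z00076719-1, of the miR-200b type, had an M of -1.36 and -1.37 in KO and -1.90 and -1.64 in WT at E17.5. It rose 1.32-fold, with a limma adjusted p of 0.0186. The call was lost with median centring (limma adjusted p of 0.132), processed signals (0.0603), the series matrix (0.0604) and the background fitted on all spots (0.182). That call was lost when either KO E17.5 array or WT E17.5 replicate 1 was left out, with limma adjusted p values of 0.0766 to 0.0945.

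Calls at the 2 stages shared probes. Of the 14 seed-matched probes called at E16.5 and the 58 called at E17.5, 9 were called at both with the same sign, 5 higher and 4 lower. These 9 are 64.3% of the E16.5 calls and 15.5% of the E17.5 calls, beside 77.5% and 15.4% over all probes tested. At E16.5 the sign was already that of the later call for 45 of these 58 (77.6%), against 87.1% of all probes called at E17.5.

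The KO effect itself differed between E16.5 and E17.5 at 3 of 403 seed-matched probes (0.744%), beside 0.308% of all probes. All 3 were of the miR-141 type. In the miR-200b type 0 of 157 passed in limma, while 23 had an unadjusted p under 0.05. No count of such p values over all probes stands beside it, so 23 is not read against the array. Z00025474-1 passed the filter through WT E17.5 alone, the group where it was high. Its KO effect was lower at E17.5 by a difference of -1.06 ± 0.09 (SE). The limma adjusted p was 0.00174 with no filter on dim probes. The call was lost with the background fitted on all spots (limma adjusted p of 0.214) and with processed signals (0.306), where the difference was -2.02. For Z00055562-1 the difference was -0.81, with a limma adjusted p of 0.0119, and it lost the call without KO E16.5 replicate 2 (0.0707) or WT E17.5 replicate 2 (0.059). For Z00076170-1 the difference was 0.49, with a limma adjusted p of 0.0469, and it lost the call with any 1 of the 8 arrays left out (0.0937 to 0.171). With processed signals none of the 403 passed in limma, while 45 had an unadjusted p under 0.05. That setting called 0 over all probes as well.

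Z00076170-1 showed the opposite shape. Its M was 1.55 and 1.56 in KO and 1.06 and 1.11 in WT at E17.5, and 1.79 and 1.76 in KO and 1.75 and 1.84 in WT at E16.5. The WT E17.5 arrays were lowest, and KO rose 1.39-fold against them, with a limma adjusted p of 0.00119. Of the miR-200b type, Z00067246-1 had the smallest p in the upward direction, with a difference of 0.38 and a limma adjusted p of 0.186. WT E17.5 replicate 2 gave no value there, because its spot was marked.

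As a group, the seed-matched probes lay close to the other probes of the same G and C content. Over both stages their median KO minus WT difference was 0.023 on the log2 scale, against 0.014 in the weighted other probes. At E16.5 the medians were 0.036 and 0.018, and at E17.5 they were 0.013 and 0.008. The share of seed-matched probes above 0 was 58.8% over both stages, against 55.2% of the weighted others and 53.8% of all probes. At E16.5 the shares were 60.8% and 56.6%, and at E17.5 they were 53.7% and 52.2%. The gap between the medians was thus 0.009 over both stages, 0.018 at E16.5 and 0.004 at E17.5.

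The spread of those gaps was not measured, and a related value can be read on single arrays. On a single array, the median M of the seed-matched probes less that of the weighted others was 0.001 and 0.008 in KO and 0.034 and -0.006 in WT at E16.5, and -0.005 and 0.010 in KO and -0.020 and -0.011 in WT at E17.5. The pooled SD between replicates of that value was 0.016. At E16.5 the KO arrays lay between the WT arrays. There the difference of medians went against the median of the probe differences, which was above the other probes, so these summaries disagree in sign. At E17.5 both KO arrays lay above both WT arrays. With median centring the gap between the medians was -0.002 over both stages, -0.004 at E16.5 and -0.012 at E17.5.

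Both types gave a median above the weighted others in each comparison with the settings reported here. For the miR-200b type the medians were 0.033 against 0.020 over both stages, 0.044 against 0.025 at E16.5 and 0.023 against 0.012 at E17.5. For the miR-141 type they were 0.015 against 0.011, 0.033 against 0.014 and 0.010 against 0.006. With median centring each of these gaps turned below 0, to between -0.016 and -0.001. At E17.5 the gap of the miR-200b type was -0.009 without WT E17.5 replicate 1. That of the miR-141 type was -0.005 when WT E17.5 replicate 2 was left out, -0.001 when KO E17.5 replicate 1 was, and -0.003 with the background fitted on all spots. Over both stages it was -0.001 with the series matrix. Array by array, the median M of the miR-141 type less that of the weighted others was 0.002 and 0.003 in KO and 0.024 and 0.014 in WT at E16.5, and 0.029 and 0.021 in KO and 0.000 and 0.003 in WT at E17.5. KO thus lay below WT at E16.5, the opposite sign to the medians of the probe differences, and above WT at E17.5. The pooled SD between replicates was 0.004 in this type and 0.035 in the miR-200b type, whose KO and WT values overlapped in both stages.

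The difference moved with base composition in seed-matched and other probes alike. Over both stages the median was 0.103 in the 19 seed-matched probes with up to 20 G or C bases, 0.036 in the 185 with up to 25, 0.019 in the 135 with up to 30 and -0.006 in the 67 above that. In the other probes the medians of these classes were 0.044, 0.027, 0.004 and -0.008. Probes rich in A and T thus read higher in KO whether or not they held a seed match. The part of this trend in the values of single probes was not tested.

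Probes with an 8-base site had medians of 0.038 over both stages, 0.049 at E16.5 and 0.018 at E17.5, against 0.017, 0.022 and 0.009 in their weighted others. Of the 72, 14 changed over both stages (19.4%), 8 higher and 6 lower, beside 19.5% of all probes. The 33 with an 8-base site of the miR-200b type had the highest medians, 0.053, 0.073 and 0.076, against 0.023, 0.031 and 0.014. Of these 33, 7 changed over both stages (21.2%), 5 higher and 2 lower. The 39 with an 8-base site of the miR-141 type had medians of 0.022, 0.034 and 0.012, against 0.011, 0.015 and 0.005. Of these 39, 7 changed over both stages (17.9%), 3 higher and 4 lower.

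Taken array by array, the 8-base lists went in different directions. For the miR-200b type, the median M less that of the weighted others was 0.202 and 0.129 in KO and 0.115 and 0.097 in WT at E16.5, and 0.201 and 0.219 in KO and 0.101 and 0.153 in WT at E17.5. Both KO arrays lay above both WT arrays at either stage, and the pooled SD between replicates was 0.033. For the miR-141 type the values were -0.135 and -0.267 in KO and -0.262 and -0.208 in WT at E16.5, and -0.287 and -0.228 in KO and -0.067 and -0.192 in WT at E17.5. The pooled SD was 0.070. There KO and WT overlapped at E16.5, and KO lay below WT at E17.5. Over all 72 probes with an 8-base site they were -0.130 and -0.097 in KO and -0.044 and -0.035 in WT at E16.5, and -0.096 and -0.040 in KO and -0.023 and -0.036 in WT at E17.5. Both KO arrays thus lay below both WT arrays at either stage in the full list, the opposite of its miR-200b subset and of the medians of the probe differences above. The pooled SD of the full list was 0.024, and at E17.5 the -0.040 of KO replicate 2 lay well within that of the -0.036 of WT replicate 2.

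For the 8-base miR-200b type, the gap of the median difference from the weighted others was 0.030 over both stages, 0.043 at E16.5 and 0.063 at E17.5. Over the 17 settings tried, the reported one included, the gap at E16.5 ran from 0.022 to 0.052. Leaving out an E17.5 array could not move the E16.5 gap. At E17.5 the gap was 0.001 with median centring, 0.015 without WT E17.5 replicate 1 and -0.029 with the background fitted on all spots. Over both stages it was -0.009 with that last fit. From E16.5 to E17.5 this list also lay above its weighted others. Its median stage difference was 0.045 against -0.012 in WT and 0.059 against -0.019 in KO. The list holds 33 probes picked by sequence alone, and no test was made of its median.

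The same 7 letters read on the opposite strand, which a microRNA could not pair with in the sense transcript, gave a comparison set of 358 probes above background. Their medians were 0.016 over both stages, 0.020 at E16.5 and 0.003 at E17.5, against 0.015, 0.020 and 0.009 in their weighted others. Over both stages 68 of 356 changed (19.1%), beside 19.5% of all probes. Of the 356, 10.7% were higher and 8.43% lower, against 10.2% and 7.44% of the seed-matched probes. At E16.5 8 of 357 changed (2.24%) and at E17.5 56 of 356 (15.7%), beside 2.95% and 14.8% of all probes.

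Carrying a match more than once did not go with a call. Z00000715-1 had an M of 0.15 and 0.19 in KO and 0.06 and 0.05 in WT at E16.5, and of 0.03 and 0.09 in KO and -0.01 and -0.07 in WT at E17.5. KO lay above WT in both stages, with a difference of 0.11 and a limma adjusted p of 0.0798. Z00075252-1, whose matches adjoin, had an M between -4.79 and -4.14 on all 8 arrays, far more signal in the reference than in footpad, and a difference of 0.13 with a limma adjusted p of 0.403. Its KO and WT values overlapped in both stages.

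Some seed-matched probes share sequence and are not independent of each other. Of the 560, 39 shared at least 20 bases with another probe, in 30 pairs, of which 11 joined seed-matched probes and 2 were identical. In 15 pairs both probes were tested. Of these, 11 had KO minus WT differences of the same sign over both stages, and the median gap between partners was 0.03 on the log2 scale. The largest gap was 0.49, between Z00056009-1 and Z00024278-1. Of the identical pairs, 1 was tested. Z00054465-1 differed by 0.08 with a limma adjusted p of 0.113, and Z00070589-1 by 0.11 with a limma adjusted p of 0.047. Only the second was called, although both carry the same letters and the SE of either difference was 0.03.

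Between stages, seed-matched probes changed at the rate of the array in either genotype. In WT 94 of 404 changed with stage (23.3%), 48 higher and 46 lower at E17.5, beside 24.7% of all probes, 13.0% higher and 11.7% lower. In KO 111 of 403 changed (27.5%), 54 higher and 57 lower, beside 28.1% of all probes, 13.4% higher and 14.8% lower. In WT 36 of these were of the miR-200b type and 58 of the miR-141 type, and in KO 39 and 72. Of the 94 and the 111, 34 rose in both genotypes, 30 fell in both and 0 went in opposite directions. The shared ones are 68.1% of the WT calls and 57.7% of the KO calls, beside 67.0% and 58.9% over all probes. With median centring the counts were 44 in WT, 11 higher and 33 lower, and 40 in KO, 14 higher and 26 lower. Of all probes called with median centring, 1416 of 3765 were higher in WT and 1316 of 3540 in KO. With Cy3 alone 41 seed-matched probes were higher and 59 lower in WT, beside 3532 of 7669 higher over all probes called. The WT count was 54 without WT E16.5 replicate 1 and 58 without WT E17.5 replicate 2, and the KO count was 45 without KO E16.5 replicate 2. It was 56 when KO E17.5 replicate 1 was left out and 67 when KO E17.5 replicate 2 was.

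The probes whose KO effect differed between stages also changed with stage in WT. Z00055562-1 rose 1.87-fold (limma adjusted p of 3.47e-05). Z00025474-1, near the limit of detection at E16.5, was higher at E17.5 by 1.18 on the log2 scale, with a range of 0.89 to 2.63 over the settings tried. In KO the stage differences of Z00025474-1 and Z00055562-1 were 0.12 and 0.10 with limma adjusted p values of 0.18 and 0.291. The WT E17.5 arrays enter both the stage and the genotype comparisons of these probes. Z00076170-1 fell 1.64-fold with stage in WT, with a limma adjusted p of 4.71e-05.

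Z00024604-1, of the miR-200b type, rose with stage in both genotypes, and its KO and WT values overlapped at E16.5. Its M was 1.45 and 1.07 in KO and 1.20 and 1.46 in WT at E16.5, and 2.09 and 2.33 in KO and 2.28 and 2.34 in WT at E17.5. It rose 1.97-fold in WT and 1.93-fold in KO, with limma adjusted p values of 0.0011 and 0.0015. Z00037222-1, of the miR-141 type, was high against the reference in all groups. Its M was 4.41 to 4.52 on the E16.5 arrays and 5.13 to 5.24 on the E17.5 arrays, a rise of 1.61-fold in WT and 1.69-fold in KO with limma adjusted p values of 8.56e-05 and 0.000103.

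Among falls with stage, Z00060646-1, an 8-base miR-141 type probe, had an M of 1.40 and 1.26 in KO and 1.03 and 1.16 in WT at E16.5, and of 0.64 and 0.69 in KO and 0.55 and 0.35 in WT at E17.5. It fell 1.56-fold in WT and 1.59-fold in KO, with limma adjusted p values of 0.000726 and 0.00078. Z00021561-1, of the miR-200b type, had an M of 3.38 and 3.48 in KO and 3.29 and 3.32 in WT at E16.5, and of 2.82 and 2.91 in KO and 2.99 and 2.83 in WT at E17.5. It fell 1.31-fold in WT and 1.48-fold in KO, with limma adjusted p values of 0.00436 and 0.000868. For both probes the stages did not overlap.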

How the data were processed

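Per the file headers, Agilent Feature Extraction 9.5.1.1 made the spot values: mean, local background and processed intensity on a linear scale, with quality marks. The authors' deposited series matrix holds log10 values. On 24641 probes bright in both dyes these matched log10 processed Cy3 minus log10 processed Cy5, with the probe's mean log10 Cy5 added back, to within 0.000159. Column medians were 2.23 to 2.24.

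Intensities were corrected with limma's normexp (version 3.58.1, R 4.3.3, offset 50), fitted without the spots that the software marks as non-uniform, and loess-normalized within arrays with control spots at weight 0. Marked spots were dropped and repeated spots averaged. M was fitted over all 8 arrays with 1 mean per group and tested with limma's moderated test and Benjamini-Hochberg adjustment over all probes above background. The number of arrays limits the precision. The fit was tested on simulated data.

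Named probes were, in each comparison and type, up to 2 largest rises and 2 largest falls among called probes (for genotype, only where KO and WT arrays did not overlap), or the smallest p in each direction if no probe was called, and probes with repeated matches or shared sequence. Probes, rules and the background fit were chosen with earlier results of these data known. Gene lists needed gene names, which the files do not pair with probes, and were not analysed here. The fold bound for dim probes applied to none of the named probes.

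Alternatives covered the background fit, offset, normalization, Cy3 alone, the series matrix, the filter, the prior, the replicate number as a block, each stage alone and leaving out each array.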

Additional observations from a re-analysis of the deposited data

Results flagged for a closer look

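At 3 seed-matched probes, all of the miR-141 type, the KO effect at E17.5 differed from that at E16.5 by limma's test of the difference itself. KO minus WT at E17.5 less that at E16.5 was -1.06 for Z00025474-1, -0.81 for Z00055562-1 and 0.49 for Z00076170-1 on the log2 scale. The first passed the filter on dim probes through WT E17.5 alone, the group where it was high, so its value is a description. At each of them the WT E17.5 arrays stood apart from the other 6. Groups of 2 arrays were too small to be searched for a single array far from its group.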

How the results depend on the processing

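Counts of seed-matched probes over both stages, at E16.5, at E17.5, for the change of the KO effect, and with stage in WT and KO were 71, 14, 58, 3, 94 and 111. Over all probes they were 5631, 855, 4295, 89, 7176 and 8164. With the background fitted on all spots, the counts of seed-matched probes were 2, 0, 1, 0, 4 and 3. Over all probes that fit called 91, 0, 36, 0, 468 and 282. With it, 26 of the seed-matched probes at E16.5 and 18 for the change of the KO effect had an unadjusted p under 0.05 in limma. The matching counts over all probes are not given. Processed signals and the series matrix each gave 0 at E16.5 and 0 for the change of the KO effect, where 65 and 45 had an unadjusted p under 0.05 in limma. An offset of 10 gave 3 and 1. Over all probes, processed signals and the series matrix each called 97 and 0, and an offset of 10 called 303 and 13. Median centring gave 6 at E16.5, 19 at E17.5, 44 in WT and 40 in KO, and the median less that of the weighted others was -0.004 at E16.5 and -0.012 at the later stage. At E16.5, Cy3 alone gave 23, no filter gave 7 and the stage's 4 arrays alone gave 7. Over all probes these settings called 1314, 519 and 372. Each count over all probes was also lower with any 1 array left out. Leaving out 1 array gave 44 to 62 over both stages, 0 to 8 at E16.5, 21 to 50 at E17.5, 1 to 2 for the change of the KO effect, 54 to 90 in WT and 45 to 111 in KO. Among named probes, 3 values reversed: Z00063018-1 at E17.5 to 0.47 with processed signals and with the series matrix, and Z00073926-1 at E17.5 to -0.15 with the background fitted on all spots. The cause of these changes was not tested. The gap of the median over both stages was 0.007 when the others were also weighted by intensity class, a choice made after seeing the data.

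With the replicate number as a block the counts were 67 over both stages, 5 at E16.5, 43 at E17.5, 2 for the change of the KO effect, 84 in WT and 95 in KO. Over all probes they were, in the same order, 4656, 459, 3308, 51, 6450 and 7277. Deviations of same-numbered KO and WT arrays correlated at -0.225 in the earlier and -0.0135 in the later stage, so the numbers were not taken to pair the samples.

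Each group had 2 arrays, 1 slide held each stage and no probe was paired with a gene. At dim probes the ratio depends on the background correction. The gaps between the median of all seed-matched probes and that of the weighted others ran from -0.012 to 0.023 over the settings tried. The SD of 0.016 between replicate arrays belongs to the single-array value, and the spread of the gaps themselves was not measured.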
